A study of Mus musculus with 2 samples.

Results

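Among the genes measured in mouse ureter explants that had been exposed to an activator of WNT signaling, 9 genes for transcription regulators of the kidney and the nephric lineage were examined: Six2, Eya1, Sall1, Pax2, Pax8, Lhx1, Wt1, Meox1 and Cited1. They were found by their gene name in the scanner tables, leaving out control spots. These 9 genes of 29924 genes named on the array were represented by 14 of 39429 probes. Explants were ureters of wildtype NMRI embryos at E12.5, sex not determined, which were pooled and kept for 18 h without serum. The treated group received 10 µM BIO (6-bromoindirubin-3-oxime), which inhibits the kinase GSK3 and thereby activates canonical WNT signaling, and the control group received only the solvent, DMSO at 2 parts in 1000. Each of 2 arrays held control RNA in one dye and BIO RNA in the other. BIO RNA carried AlexaFluor647 (red) in replicate 1 and AlexaFluor555 (green) in replicate 2. Per the study's methods, the ureters had been clipped at the junction with the kidney, and each sample was RNA of a whole pool with its epithelium and mesenchyme together.

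The nephrons of the kidney derive from the metanephric mesenchyme, which condenses as the cap mesenchyme around the tips of the ureteric bud. In the cap mesenchyme, Six2, Cited1, Meox1, Eya1, Sall1 and Wt1 mark or maintain nephron progenitors, and WNT signals from the bud direct part of these cells to form epithelial renal vesicles. Pax2, Pax8 and Lhx1 act earlier as well, in the intermediate mesoderm and the nephric duct, and the ureteric bud grows out of that duct. The ureter itself is formed from the distal part of the bud and from a separate mesenchyme, and it makes no nephrons.

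The array measures each gene through probes of 60 bases, and the probes that the results turn on are shown because they decide what was measured for these genes. For Meox1, Lhx1 and Wt1, which passed the test, these are the first 30 bases of each probe. Of the Eya1 probe the last 30 bases are given, and the capitals mark an alternating repeat.
Meox1: ctaagattacatcaagctaattgtgcaagg
Lhx1, brighter probe: tatgtaaaaaggtgttgtttacacgaggca
Lhx1, dimmer probe: agtgtcgccaaagagaacagcctccactcg
Wt1: ggtattagctgcatcactgtgtggatgtca
Eya1: GTGTGTGTGTGTGTGTGTGTGTGTGTGTGT
Coordinates are those of the file headers in build mm9. The Meox1 probe (NM_010791) lies on chromosome 11 from 101738847 to 101738906, minus strand. The brighter Lhx1 probe (ENSMUST00000018842) lies on chromosome 11 from 84331888 to 84331947, and the dimmer one (NM_008498) from 84335442 to 84335594, both on the minus strand. The dimmer Lhx1 probe thus has its 60 bases spread over 153 bases of the genome, which leaves out 93 bases between its parts. The Wt1 probe (NM_144783) lies on chromosome 2 from 105013656 to 105013715, plus strand, and the Eya1 probe (NM_010164) on chromosome 1 from 14159982 to 14160041, minus strand.

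Array quality bears on these genes through the dim signals. Of the biological spots, between 70.1% and 80.9% were well above background in a channel, a mark set by the scanner software, and 0 spots were saturated. A probe entered the test if both control channels or both BIO channels had this mark, as 28824 probes and 21598 genes did. Axin2, a direct feedback target of canonical WNT signaling, rose from processed signals of 827 and 865 in the control to 4212 and 3690 with BIO (mean log2 ratio 2.15 ± 0.12, SE, n = 2 arrays, limma adjusted p = 3.41e-05). All 6 WNT feedback genes examined rose, with a median log2 ratio of 1.71. The ureteric mesenchyme (UM) markers, which include Tbx18 and Foxf1, were well above background in all 4 channels in 8 of 8 cases, and the ureteric epithelium (UE) markers in 7 of 8.

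With BIO, Meox1 and Lhx1 fell, Wt1 rose, and the other 6 regulators did not pass the test. Meox1 fell the furthest, to a log2 ratio of -1.53 (2.90-fold lower), while Lhx1 was 1.48-fold lower and Wt1 1.50-fold higher. Thus 1 of 9 regulators rose, where 9.14% of all genes tested rose, and 2 of 9 fell, where 14.8% of all genes tested fell. In either direction 23.9% of all genes tested were called. With 9 genes a single gene is 11.1% of the set, so these shares were near the background. The median log2 ratio of the 9 genes was -0.13, against -0.01 for all genes tested. At an unadjusted p below 0.05 the count was the same, 3 of 9. In RNA of whole explants, fewer cells of a type and less RNA per cell cannot be told apart.

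**Figure D1:**
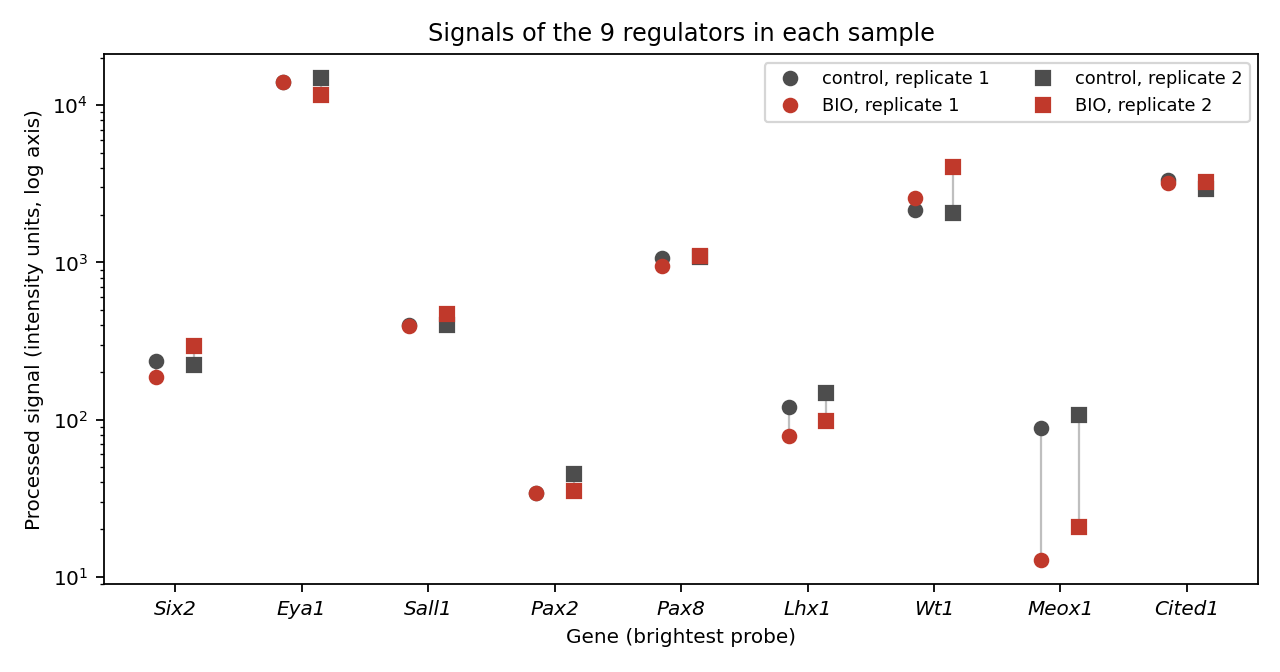
Processed signal in intensity units, on a log axis, of the brightest probe of each of the 9 regulators in each of the 4 samples (gray control, red BIO; circles replicate 1, squares replicate 2), where a line joins the 2 channels of an array. Only Meox1 shows a gap that is wide on both arrays, from 88.9 and 106 down to 12.7 and 20.6, and signals of different genes come from different probes and are not comparable.

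All 9 genes had at least 1 tested probe, and 11 of the 14 probes were tested. Of these, 10 were well above background in all 4 channels. The exception was Meox1, which was above background with BIO in replicate 2 only. In 7 of the 11 tested probes the ratio had the same sign on both arrays.

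Six2, a homeodomain factor that keeps nephron progenitors undifferentiated, had 3 probes on chromosome 17. They are shown from their first 30 bases for the pair with signal.
Six2, brighter probe: ccattttacgccctcatgtgaatgttcgtc
Six2, dimmer probe: ggtgtcatctatttgagttcctttctcaac
At the brighter probe (NM_011380, 86083634 to 86083693, minus strand), processed signals were 236 and 223 in the control and 186 and 294 with BIO. The lowest and the highest value were both from BIO samples, so that the groups overlapped and the arrays went in opposite directions, with log2 ratios of -0.44 and 0.32. The mean was -0.06 ± 0.17 (SE, 95% interval -0.45 to 0.33, limma adjusted p = 0.846). The dimmer probe (86083986 to 86084045) gave signals of 17.3 and 21.6 in the control and 21.1 and 20.9 with BIO, which overlapped. Its mean log2 ratio was 0.03 ± 0.11 (SE, limma adjusted p = 0.875). A probe of the transcript AK142139 (86082307 to 86082366) was not well above background in any channel and was not tested, its signals lying between 2.58 and 3.99.

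Cited1, a transcriptional coactivator found in the least differentiated cap mesenchyme cells, had processed signals of 3324 and 2939 in the control and 3213 and 3258 with BIO (NM_007709, chromosome X, 99442776 to 99442835, minus strand). Both BIO values lay between the control values. Log2 ratios were -0.09 and 0.12 on replicates 1 and 2, and averaged 0.01 ± 0.11 (SE, 95% interval -0.25 to 0.28, limma adjusted p = 0.945).

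Meox1, a homeobox gene of somites and of the cap mesenchyme, had processed signals of 88.9 and 106 in the control and 12.7 and 20.6 with BIO. The groups were clearly apart, and both arrays went down by a similar extent. The arrays gave log2 ratios of -1.61 and -1.46, with a mean of -1.53 ± 0.11 (SE, 95% interval -1.79 to -1.28, limma adjusted p = 0.000101). Meox1 is a dim probe, and the offset of 50 added to the intensities pulls its ratio toward 0. From the processed signals, with a floor of 15, the log2 ratio was -2.49. As the BIO signal of replicate 1 lay under this floor, the floor sets the ratio of that array, and on this scale Meox1 was at least 5.62-fold lower. Meox1 entered the test through its control channels alone. Because its control signal in replicate 1 was under 100, it did not meet the rule by which the study read its other arrays, a signal of at least 100 and a change of at least 2-fold on both arrays. This rule was met by 0 of the 9 regulators, against 0.945% of all genes tested for higher and 2.12% for lower signals.

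Eya1, a phosphatase and coactivator that works with homeodomain factors such as Six2, had signals of 14012 and 14854 in the control and 14057 and 11604 with BIO. The processed signal with BIO lay between the control values in replicate 1 and below both in replicate 2. The normalized log2 ratios were -0.10 and -0.35, with a mean of -0.23 ± 0.12 (SE, 95% interval -0.50 to 0.04, limma adjusted p = 0.198). The probe holds an alternating run of T and G over 34 of its 60 bases, of which the printed bases are a part. On the whole array 52 probes, of 52 genes, hold such a run of at least 20 bases, and 11 hold one of at least 34. The median control signal of these 52 probes was 15704, against 160 over all probes, and 28 of the 52 had a higher control signal than Eya1. All 52 were tested and 0 were called by limma, where 23.2% of all probes tested were called, while 25 had an unadjusted p below 0.05. With each of the other 5 ways of computing a ratio per probe, 0 of the 52 were called as well. Their median log2 ratio was -0.26, close to that of Eya1. Across the 52 probes the log2 ratio went down with intensity (Pearson r = -0.777, a description, as these probes share the repeat), against an r of 0.0351 over all tested probes. Whether the repeat contributed to the Eya1 signal was not tested.

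**Figure D2:**
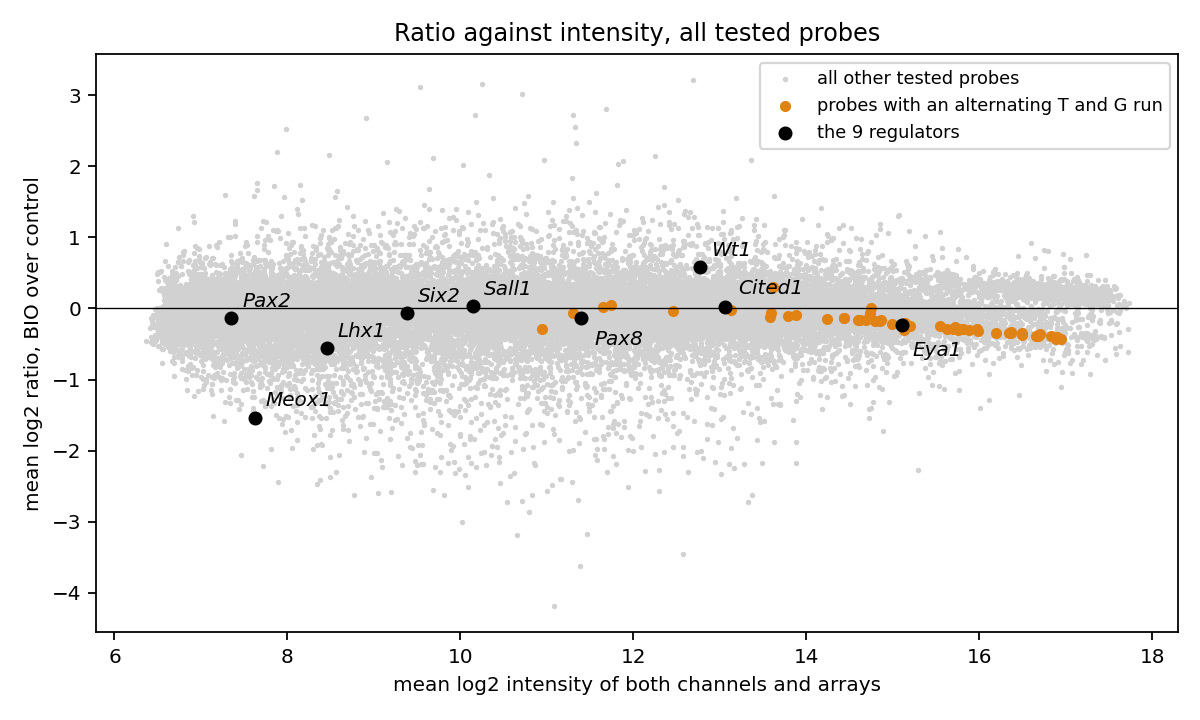
Mean log2 ratio of BIO over control against mean log2 intensity of both channels and arrays for every tested probe (gray), for the 52 probes with an alternating T and G run of at least 20 bases (orange) and for the brightest probe of the 9 regulators (black). Eya1 sits on the band formed by the bright repeat probes, whose median log2 ratio was -0.26, and Meox1 lies well below the other regulators.

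Sall1, a zinc finger protein that the metanephric mesenchyme needs to attract the ureteric bud, had signals of 401 and 402 in the control and 391 and 472 with BIO (NM_021390, chromosome 8, 91551278 to 91551337, minus strand). The BIO values enclosed the control values. The mean log2 ratio was 0.03 ± 0.12 (SE, 95% interval -0.25 to 0.30, limma adjusted p = 0.901).

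Wt1, a zinc finger factor of the metanephric mesenchyme, of podocytes and of mesothelia, had signals of 2156 and 2056 in the control and 2559 and 4031 with BIO. Both BIO values were above both control values, but most of the difference came from replicate 2. Replicate 1 gave a log2 ratio of 0.18 and replicate 2 one of 0.98, and the mean was 0.58 ± 0.18 (SE, 95% interval 0.18 to 0.99, limma adjusted p = 0.0471). The call was lost in 5 of 6 alternatives with a test, and over all 6 the limma adjusted p was between 0.0382 and 0.413. On each array 3 spots of this probe were left after outliers had been removed.

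Other sources of Wt1 were followed through marker genes. Of the podocyte genes, 4 of 6 were well above background in all 4 channels. The slit diaphragm gene Nphs1 was dim, with signals from 5.09 to 19.4. The summed signal of the list was between 3935 and 4136 in the control and between 3569 and 3704 with BIO. Such a sum, here and below, weighs the brightest probes of a list most, and signals of different probes are not comparable. Of the podocyte list, Ptpro rose (log2 ratio 0.51, limma adjusted p = 0.0381), while Podxl (-0.82, adjusted p = 0.00254) and Synpo (-0.41, adjusted p = 0.0273) fell. The call of Ptpro was lost in 5 of 6 alternatives with a test (adjusted p from 0.0606 to 0.393), and that of Synpo with the processed signals (0.0623) and median centering (0.137). The other tested probes of Synpo differed in sign, with log2 ratios of -0.11 and 0.10 (limma adjusted p = 0.603 and 0.550). With the mean of all tested probes of a gene, 1 podocyte gene fell in place of 2. Of the mesothelium and gonad genes, 3 of 6 were well above background in all 4 channels, and the summed signal was between 654 and 762 in the control and between 494 and 653 with BIO. Here Upk3b (log2 ratio -0.67, limma adjusted p = 0.00489) and Msln (-0.47, adjusted p = 0.0264) fell and 0 of 6 rose, and the call of Msln was lost with the processed signals (0.0776). Neither summed signal was higher with BIO. The part of these cell types in the Wt1 signal was not tested. The antisense transcript Wt1os, chosen after its values were seen, had a log2 ratio of 0.25 ± 0.13 (SE, limma adjusted p = 0.210).

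Pax2, a paired-domain factor of the whole nephric lineage, had 3 probes on chromosome 19, plus strand. The first 30 bases of the brightest and the dimmest are shown because the files assign both to the same transcript (NM_011037) and only the former gave a usable signal.
Pax2, brightest probe: ggcaacccatacagccatccccagtacacc
Pax2, dimmest probe: acccgacgtggtgaggcagcgcatcgtgga
The brightest probe (44909895 to 44909954) had signals of 33.9 and 45.4 in the control and 34.2 and 35.2 with BIO, so that both BIO values lay within the control range. The mean log2 ratio was -0.13 ± 0.11 (SE, 95% interval -0.39 to 0.12, limma adjusted p = 0.442). The dimmest probe (44835420 to 44835479), with 70.0% G and C the richest of all 14 probes, read 5.32 and 7.54 in the control and 6.58 and 4.77 with BIO and was well above background in no channel. The remaining probe (ENSMUST00000004340, 44871124 to 44871183) gave 7.29 and 9.50 in the control and 8.24 and 9.26 with BIO and passed the background mark in only 1 sample of each group. For these 2 probes no change was detectable at this signal.

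Pax8, a close relative of Pax2 with which it shares its role in specifying the nephric lineage, had signals of 1063 and 1083 in the control and 950 and 1093 with BIO (NM_011040, chromosome 2, 24276147 to 24276206, minus strand). The BIO values enclosed the control values. Log2 ratios of -0.23 and -0.05 on the arrays averaged -0.14 ± 0.11 (SE, 95% interval -0.40 to 0.12, limma adjusted p = 0.428).

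Lhx1, a LIM homeodomain factor of the nephric duct and, later, of the renal vesicle, fell. At its brighter probe, signals were 120 and 147 in the control and 79.2 and 98.0 with BIO, so that both BIO values lay below both control values. Its log2 ratio was -0.63 in replicate 1, -0.49 in replicate 2 and on average -0.56 ± 0.11 (SE, 95% interval -0.82 to -0.31, limma adjusted p = 0.00836). The dimmer probe, the one whose bases are split in the genome, gave 31.5 and 38.0 in the control and 27.1 and 27.6 with BIO. It went the same way on both arrays but by less, and its log2 ratio of -0.21 ± 0.11 (SE, 95% interval -0.46 to 0.04) had an adjusted p of 0.202 by limma. The intervals of both probes overlapped, and the difference between them was not tested. With the mean of both probes the log2 ratio of Lhx1 was -0.39 and passed the test (limma adjusted p = 0.0244).

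**Figure D3:**
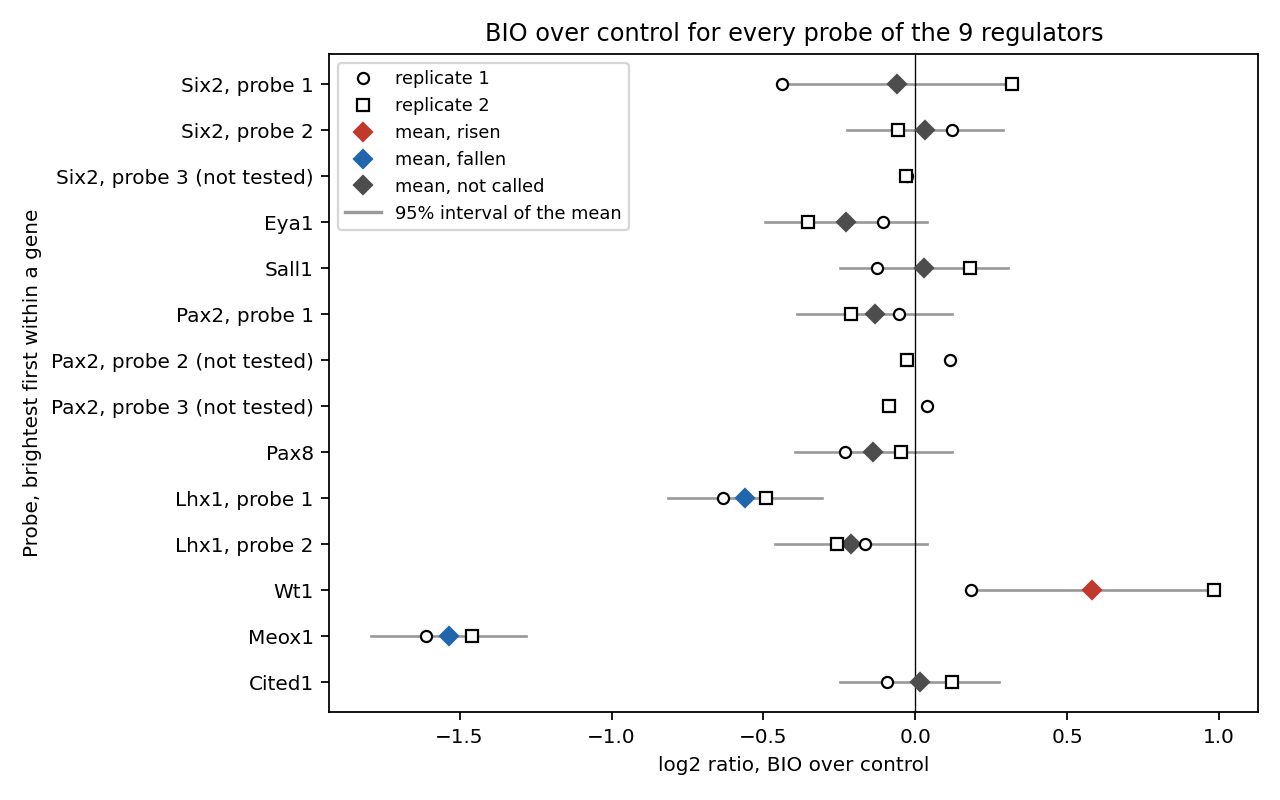
Log2 ratio of BIO over control for all 14 probes of the 9 regulators, with open circles for replicate 1, open squares for replicate 2, diamonds for the limma mean of tested probes (blue fallen, red risen, gray not called) and bars for its 95% interval. Intervals of Meox1 (-1.79 to -1.28), the brighter Lhx1 probe (-0.82 to -0.31) and Wt1 (0.18 to 0.99) exclude 0, and for Wt1 and the brighter Six2 probe the 2 arrays lie far apart.

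For the 6 regulators that did not pass the test, the intervals of the log2 ratio of the brightest probe lay between -0.50 and 0.33. A p above the threshold does not show that their levels were equal, and changes inside these intervals could not be detected with 2 arrays. Meox1 and Lhx1 kept their call under all 6 alternatives with a test, with log2 ratios from -2.49 to -1.53 for Meox1 and from -0.67 to -0.39 for Lhx1. The score table, the authors' value per probe and array rounded to 1 decimal, carries little weight here, since its rounding gave all 2949 genes with an equal score other than 1 on both arrays a call, Lhx1 (-1.5 on both) among them, against 1.62% of the other genes.

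**Figure D4:**
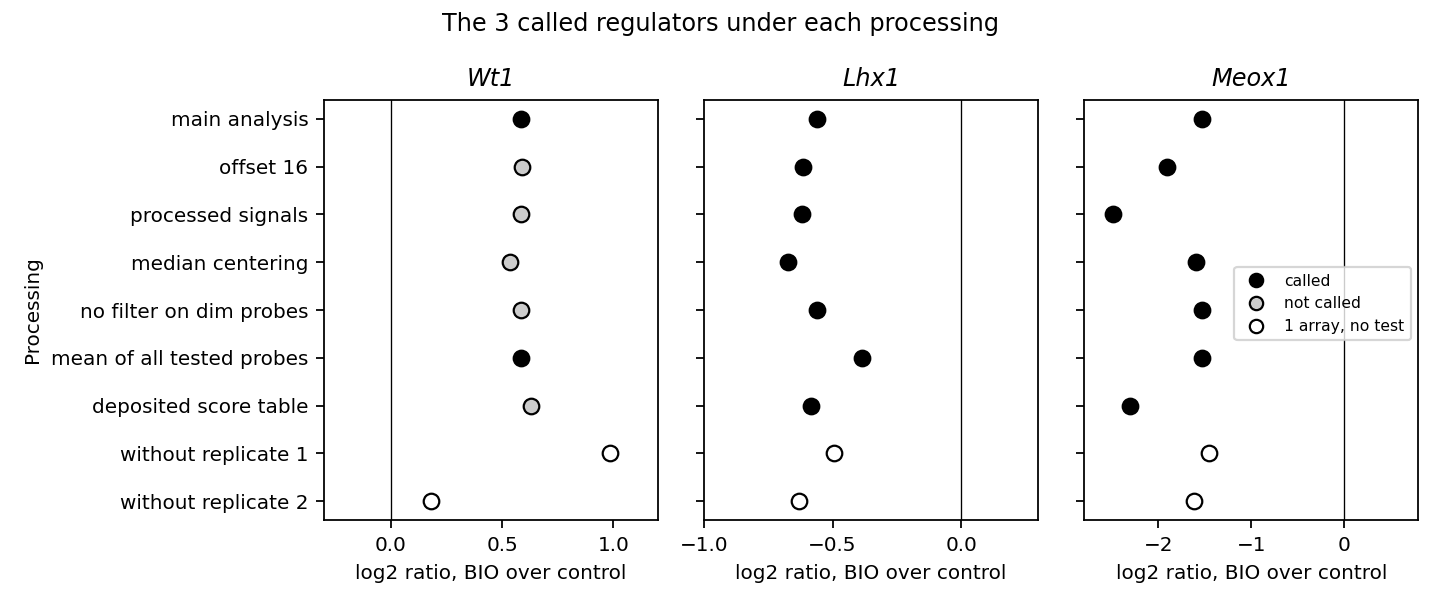
Log2 ratio of BIO over control for Wt1, Lhx1 and Meox1 in the main analysis, under 6 alternative processings and with 1 array left out (filled black where the limma test was passed, gray where it was not, open where a single array allows no test); the horizontal ranges differ between panels. Meox1 and Lhx1 are black wherever a test was made, whereas Wt1 is black in the main analysis and with the mean of all tested probes only.

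The paralogs of these regulators were followed to see how their families behaved. Of 17 paralogs, 14 were tested, 2 rose and 4 fell, with a median log2 ratio of -0.27. Over all genes tested, 9.14% rose and 14.8% fell, with a median of -0.01. These background values apply to each list that follows. Pax3, a paired-domain factor of the dorsal neural tube and of muscle progenitors, had signals of 33.4 and 48.2 in the control and 160 and 152 with BIO (log2 ratio 1.40 ± 0.13, SE, limma adjusted p = 0.000243). Its other probe went the same way (log2 ratio 1.59). Meox2, the paralog of Meox1, had signals of 106 and 138 in the control and 28.3 and 66.2 with BIO, which did not overlap (log2 ratio -1.13 ± 0.14, SE, limma adjusted p = 0.000993). Thus both Meox genes fell. Eya4 and Six5 each fell to a log2 ratio of -0.66 (adjusted p = 0.00374 and 0.00442, limma). The other risen paralog was Lhx2 (log2 ratio 0.37, limma adjusted p = 0.0455) and the other fallen one was Cited2 (-0.66, adjusted p = 0.00507), both named beyond the rule to complete the count. The call of Lhx2 was lost with median centering (adjusted p = 0.380) and without the filter on dim probes (0.0514). Pax1 and Lhx5 were well above background in no channel and Pax9 in 1 channel of each group, so none of them was tested.

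Of 12 other genes of the metanephric mesenchyme and its nephron progenitors, all were tested, 1 rose and 5 fell, with a median log2 ratio of -0.31. Osr1, a zinc finger factor that lies upstream of much of this program in the intermediate mesoderm, had signals of 1804 and 1757 in the control and 875 and 1024 with BIO (log2 ratio -0.94 ± 0.12, SE, limma adjusted p = 0.000898). Itga8, the integrin chain by which the mesenchyme responds to the bud, had signals of 4789 and 5726 in the control and 2152 and 2986 with BIO (log2 ratio -1.07 ± 0.11, SE, limma adjusted p = 0.000378). For both genes the groups did not overlap. Dpf3, a chromatin factor subunit, was lower at a log2 ratio of -0.54 (limma adjusted p = 0.00882). Tmem100, a small membrane protein, was the one that rose, from 343 and 415 in the control to 1189 and 1110 with BIO (log2 ratio 1.48 ± 0.12, SE, limma adjusted p = 0.000168).

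Of 14 genes of early nephron differentiation, 13 were tested, 4 rose and 5 fell, and their median log2 ratio was -0.09. Wnt4, the signal that drives the mesenchyme into renal vesicles, had signals of 2651 and 2670 in the control and 6857 and 6272 with BIO (log2 ratio 1.26 ± 0.11, SE, limma adjusted p = 0.000218). Its other tested probe rose as well, to a log2 ratio of 1.15. The Iroquois genes Irx1 and Irx3, both homeobox genes of later nephron segments, went in opposite directions. Irx1 rose from 43.2 and 36.1 to 185 and 113 (log2 ratio 1.32 ± 0.13, SE, limma adjusted p = 0.000296), and Irx3 fell from 684 and 748 to 244 and 268 (log2 ratio -1.48 ± 0.11, SE, limma adjusted p = 0.000104). Jag1, a Notch ligand, fell to a log2 ratio of -0.62 (limma adjusted p = 0.00870). Hnf4a, a factor of the proximal tubule, was not well above background and not tested. Lhx1, which marks the same step as Wnt4, thus had a ratio of the opposite sign.

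Of 15 genes of the nephric duct and the ureteric bud, all were tested, 9 fell and 0 rose, with a median log2 ratio of -0.48. The list holds the receptor Ret, which promotes bud outgrowth, and genes downstream of it. Ret had signals of 1471 and 1703 in the control and 428 and 801 with BIO (log2 ratio -1.46 ± 0.16, SE, limma adjusted p = 0.000579). Etv5, an ETS factor downstream of Ret, had signals of 2068 and 2003 in the control and 601 and 815 with BIO (log2 ratio -1.53 ± 0.13, SE, limma adjusted p = 0.000202). Spry1, a feedback inhibitor of receptor tyrosine kinases, fell to a log2 ratio of -1.26 (limma adjusted p = 0.000791), and Cxcr4, a chemokine receptor, to -1.83 (adjusted p = 6.08e-05). Pax2, Pax8 and Lhx1 are active in the same duct, and of these Lhx1 fell.

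These 4 lists hold 55 genes, because some genes stand in more than 1 of them. Of the 55, 51 were tested, 7 rose and 22 fell, which is 13.7% and 43.1% of those tested. Over all genes tested, 9.14% rose and 14.8% fell. The median log2 ratio of the lists was -0.29, against -0.01 for all genes tested. The counts describe the lists, and no test was made of a list. The number of fallen genes rests on the scanner values: with the authors' rounded score table it was 3, for which the same limit of that table holds.

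**Figure D5:**
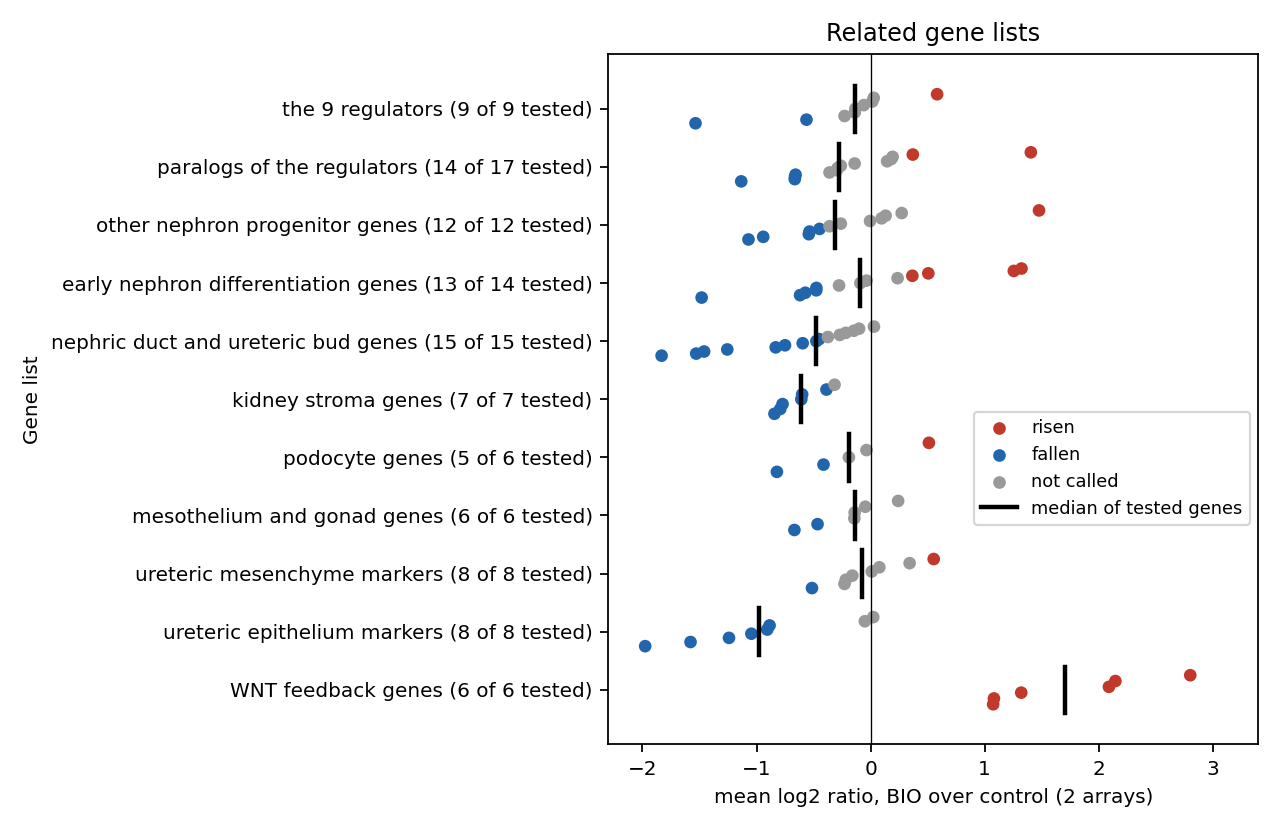
Mean log2 ratio of BIO over control for each tested gene, 1 row per list (red risen, blue fallen, gray not called, black bar the median of the tested genes). The 9 regulators have a median of -0.13, the nephric duct and ureteric bud genes lie almost wholly left of 0 with 9 of 15 fallen, and the 6 WNT feedback genes all lie to the right.

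Marker genes listed for kidney stroma and for the ureter's own tissues gave the setting of these changes. Genes of the stroma list are not confined to the kidney, as the paper reports Aldh1a2 in the UM. Of 7 kidney stroma genes, all were well above background in all 4 channels and 6 fell, with a median log2 ratio of -0.61. The summed signal of this list was between 148466 and 160106 in the control and between 97100 and 110738 with BIO. Its largest changes were in Meis2 (log2 ratio -0.84), Pdgfra (-0.79), Meis1 (-0.77) and Aldh1a2 (-0.61), with limma adjusted p-values from 0.00160 to 0.00526. When the arrays were centered on the median in place of loess, 3 of the 7 fell, while 1 fell with the score table and 0 by the 2-fold rule. Whether the signals of this list came from kidney stroma or from cells of the ureter was not tested. Their part in the fall of Meox1 and Lhx1 was not tested either.

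Of 8 UM markers, 1 rose and 1 fell: Tshz3 with a log2 ratio of 0.55 (limma adjusted p = 0.0251) and Bmp4 with -0.51 (adjusted p = 0.0111). The call of Tshz3 was lost with the processed signals (0.108) and without the filter on dim probes (0.0535), and that of Bmp4 with median centering (0.684). The summed signal of the UM list was between 103717 and 105106 in the control and between 92897 and 98207 with BIO. Of 8 UE markers, 6 fell, with a median log2 ratio of -0.98, against 1 with the score table and 2 by the 2-fold rule. With the mean of all tested probes of a gene, 7 fell. Trp63 was not called at its brightest probe (log2 ratio -0.05), but its other tested probes fell (-1.98, -0.79 and -0.41). The 6 fallen markers included the uroplakin genes Upk3a (log2 ratio -1.98) and Upk1b, Krt19 (-1.24) and Cdh1 (-1.04), with limma adjusted p-values from 5.20e-05 to 0.000486. Upk1b was not well above background with BIO on any array and was at least 2.85-fold lower. The summed signal of the UE list was between 73297 and 73866 in the control and between 38969 and 46374 with BIO. Most of this sum came from Krt8 and Krt18, whose signals were 27676 to 28778 in the control and 13851 to 17747 with BIO. The part of UE cells in the fall of Lhx1 was not tested.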

How the data were processed

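Total RNA of 2 pools of ureter explants per group was hybridized on 2 Agilent 2-color arrays with the dyes exchanged. Per the labels and the study's methods, 1 array compares 1 BIO with 1 control pool. The p-values, SEs and intervals start from the spread between these 2 arrays. In limma this spread is moderated toward a prior SD of 0.162, with 7.14 prior degrees of freedom, estimated over all tested probes. Where the arrays lay far apart, as for Wt1 (SD 0.57 between arrays), the SE is smaller than those arrays alone would give. The authors deposited scanner tables of Agilent Feature Extraction 10.7.3.1 (version from the submitters' processing notes) with mean and background spot intensities and with processed signal intensities, which per the file headers had been background-subtracted and dye-normalized. The authors also deposited a score table, rounded to 1 decimal. Its making is not given in the sources used here. Set against the processed signals (r = 0.988 and 0.984), the score behaves as a fold change, negative where control is brighter, with a median of 1, while its exact centering stays unknown.

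Mean intensities were background-corrected in limma 3.58.1 (R 4.3.3) by normexp with an offset of 50 and normalized within each array by loess. Control spots and outlier spots (3.49% and 3.16% of the biological spots) had weight 0 and were left out, and the up to 4 spots of a probe were averaged. Replicate 2 was turned, and log2 ratios were compared with 0 by two-sided tests (lmFit, eBayes) at 0.05 after adjusting for 28824 probes by the Benjamini-Hochberg method. The mark of being well above background had to be on over a share of 0.5 of a probe's spots. Of several probes the one of highest mean log2 intensity stood for a gene. The median SE of a log2 ratio was 0.111, and the number of arrays limits the precision. Both arrays lay on 1 slide, so slide and group are not linked. The script was tested on simulated data.

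Alternatives were an offset of 16, the processed signals (floor 15), median centering, no filter on dim probes, the mean of a gene's tested probes, the score table, the intensity and fold-change rule, and each array alone. All probes of the regulators are given. From each other list, up to 4 genes past the test with the largest log2 ratio and those not well above background were named, and of the WNT feedback genes Axin2. A few genes of the lists are counted but not reported here by name. The regulators and lists were chosen with earlier results of these data known. A genome annotation of build mm9 was not used here.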

Additional observations from a re-analysis of the deposited data

How the results depend on the processing

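Over the 9 regulators and 6 alternatives with a test, 49 of 54 values kept their side of the threshold, 5 lost the call, all of Wt1, and 0 gained one or reversed a call. The number of risen regulators was therefore 0 in place of 1 under 5 settings: no filter for dim probes, the score table, median centering, an offset of 16 and the processed signals. Without the filter more probes are tested, and the log2 ratio of Wt1 itself stayed at 0.58. In the other 4 the cause was not tested. The number of fallen regulators was 2 in all 6, and with the intensity and fold-change rule 0 rose and 0 fell. The median log2 ratio of the regulators was -0.069 with the score table, -0.046 without replicate 1 and -0.12 without replicate 2. Median centering turned the sign of the uncalled ratios of Sall1 (-0.11) and Cited1 (-0.02). In the score table, rounding decides most calls, as all 2949 genes with equal scores other than 1 on both arrays passed and 302 of 18649 others did. In the 4 related lists, 22 genes fell and 7 rose, against 3 and 3 with the score table, 5 and 4 with the rule, and 4 risen with median centering. Of all genes, 14.8% fell, against 6.11% with the score table, 2.12% with the rule, 8.99% with median centering and 9.74% without the filter. The share that rose was 9.14%, against 0.945% with the rule, 3.83% with median centering and 5.99% without the filter. The cause was not tested, save that the rule asks for a larger change and has no test. The main analysis was already paired, because each array is itself the pair of BIO and control and the ratios were compared with 0. No separate paired analysis was therefore made. Meox1 was the only regulator whose fold change moved by over 1.5 times, and its dim BIO signal limits that value.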

Other observations

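The 2 arrays differed more for Six2 and Wt1 than for most genes. The log2 ratios of the arrays were 0.76 apart for Six2 and 0.80 apart for Wt1, larger than for 98.1% and 98.4% of all genes tested, while those of the other 7 regulators were between 0.14 and 0.30 apart. In 7 of the 9 regulators the ratio was higher in replicate 2, in which BIO RNA was green, and so it was in 58.6% of all genes tested. With 1 array per dye orientation, dye and replicate cannot be told apart. A spread of this kind was also seen in UM markers, which were chosen after their values were seen. Sox9 had log2 ratios of -0.80 and 0.34, and Foxf1 of -0.80 and 0.48.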
